A study of Mus musculus with 3 samples.

Results

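The respiratory chain and ATP synthase genes were taken as the nuclear protein-coding genes of the mm10 RefSeq table whose symbols begin with Ndufa, Ndufb, Ndufc, Ndufs, Ndufv, Uqcr, Sdh followed by a to d, Cox4 to Cox8, or Atp5. Assembly factors named Ndufaf or Sdhaf were left out. The rule found 88 genes among 21887 nuclear protein-coding genes and used no measured value. By subunit, 39 belonged to complex I, 4 to complex II, 8 to complex III, 20 to complex IV and 17 to the ATP synthase (complex V), with Ndufa4 and Ndufa4l2 placed in complex IV.

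Chromatin accessibility was mapped by ATAC-seq, in which a transposase cuts and tags open DNA, in hematopoietic stem cells (HSCs) sorted from adult mice. All mice had received poly(I:C) and carried mTORflox/flox without the Mx1-Cre transgene, so mTOR was intact in each library. Sorted cells were kept in serum-free culture with the solvent DMSO, with 200 nM AZD2014, which competes with ATP at the mTOR kinase, or with 1 µM rapamycin, which inhibits mTOR allosterically. Each condition had 1 library of 50000 cells and 1 list of peaks. The sources used here give neither the age in weeks nor the length of exposure, and do not say whether animals were pooled.

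Electrons from NADH enter the respiratory chain at complex I and those from succinate at complex II, and they pass through complex III and cytochrome c to oxygen at complex IV. Complexes I, III and IV pump protons across the inner mitochondrial membrane, and the ATP synthase uses that gradient to make ATP. Complexes I, III, IV and V combine nuclear-encoded with mitochondrially encoded subunits, whereas complex II is nuclear-encoded throughout. The transcription factors NRF1, GABP (an ETS factor), YY1 and ERRα are known to act at many of the nuclear genes. Quiescent HSCs are known to rely more on glycolysis than their progeny do, and mTOR is a known regulator of mitochondrial biogenesis.

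Peaks numbered 17189 with DMSO, 21321 with AZD2014 and 18233 with rapamycin, and read depth is unknown. Each peak carried a score given by the authors, with a lowest value of 50 in every list after rounding. Scores were used only to rank peaks within 1 list, and a percentile below means the share of that list's peaks with a lower score. With 1 library per condition there was no replicate check, so no difference could be set against replicate error and no p-value is given. A gene without a peak had none that entered the deposited list, which does not show closed chromatin. Of 12 HSC marker genes, 6, 7 and 6 had a gene-end peak under DMSO, AZD2014 and rapamycin, among them Kit, Meis1, Mecom, Hlf, Runx1 and Tal1 in every list. Of 18 markers of other cell types, 2, 3 and 4 had one. The erythroid markers gave 2 of 3 in each list, Cd79a had a peak under both drugs and Cpa3 under rapamycin, while the T cell, neutrophil and non-blood markers had none. The part of other cell types in the results below was not tested.

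Most respiratory genes had an open site at a gene end in all 3 lists. A gene end here reaches 1 kb to both sides of each end of a gene, and a peak counted when it touched that stretch by at least 1 bp. In the DMSO list 76 of 88 genes had such a peak (86.4%, 95% Wilson interval 77.7 to 92.0, counting error only), against 46.0% of all genes. In the AZD2014 list 78 had one (88.6%, 80.3 to 93.7), against 49.5% of all genes, and in the rapamycin list 71 (80.7%, 71.2 to 87.6), against 46.9%. In total 71 of the 88 had a peak in all 3 lists, 5 in 2 lists, 2 in 1 list and 10 in none. Over all genes 43.5% had one in all 3 lists.

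**Figure D1:**
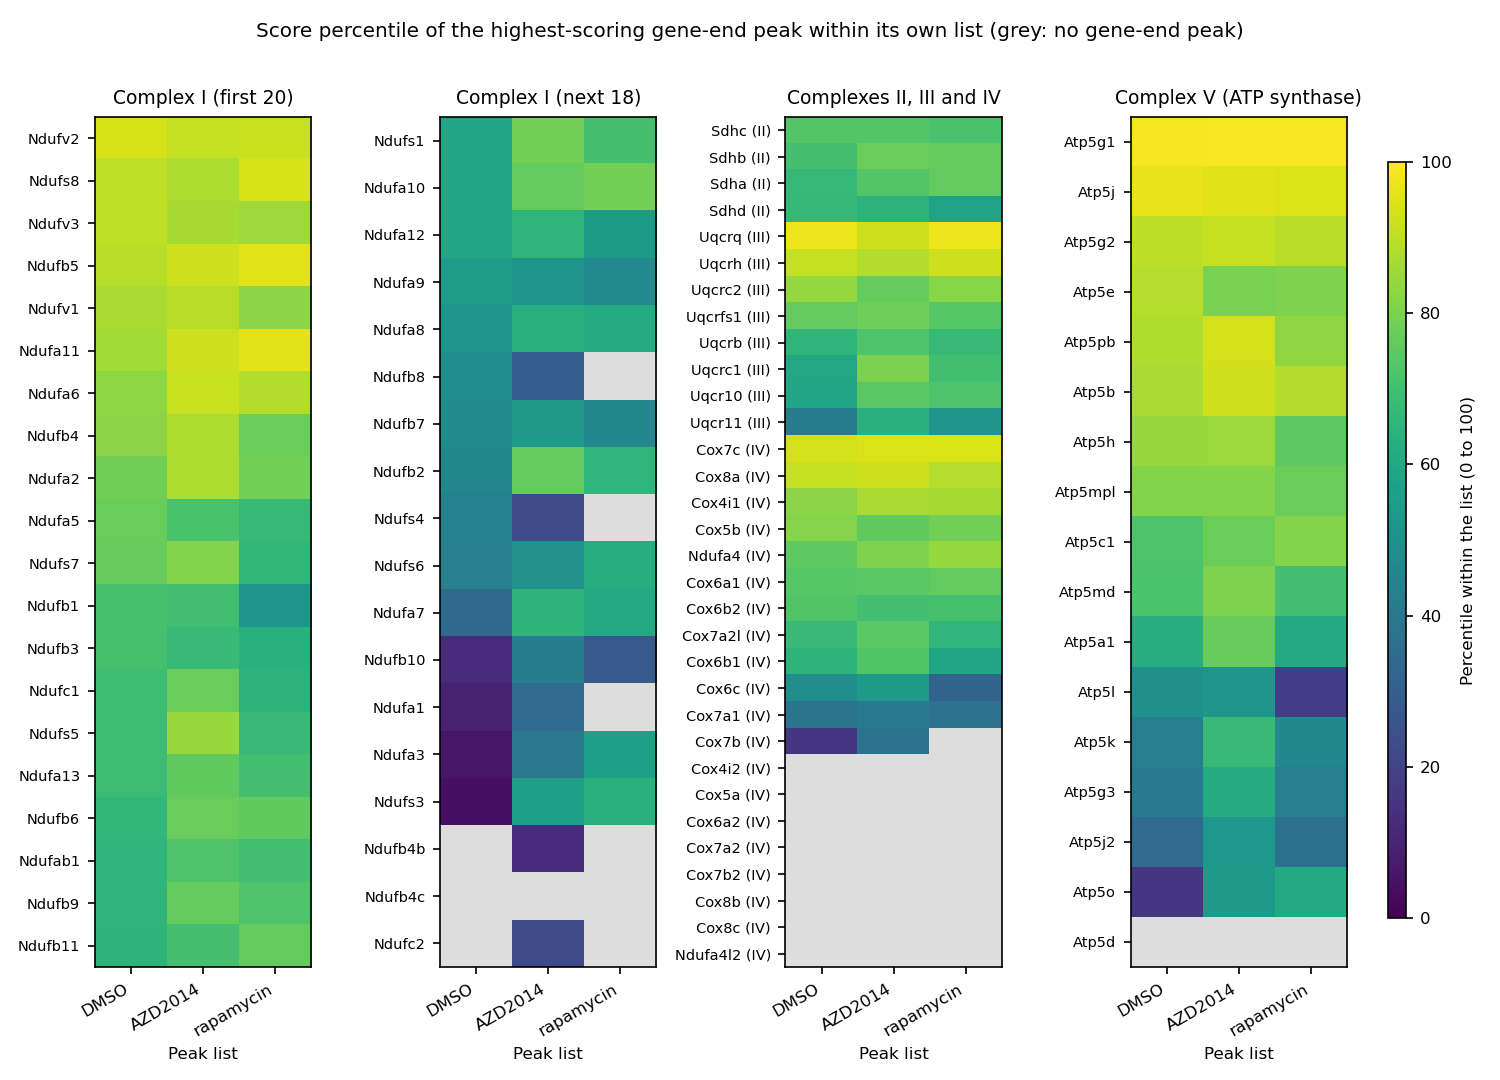
Score percentile of the highest-scoring gene-end peak of the respiratory genes reported here (rows, by complex and by DMSO percentile) in the DMSO, AZD2014 and rapamycin lists (columns); grey cells have no gene-end peak. Rows are filled in all 3 lists for 71 genes. Grey cells gather at the low end of complex I and in complex IV.

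The genes were common among open sites without being especially high in the ranking. The median percentile of their highest-scoring gene-end peaks was 68.5 under DMSO, 75.7 under AZD2014 and 71.4 under rapamycin. Medians over all genes with a gene-end peak were 71.0, 75.1 and 72.6. The range of the respiratory genes ran from 4.06 to 98.8, from 12 to 98.95 and from 18.4 to 98.97. Percentiles of 90 or more were reached by 10, 12 and 9 of them, or 13.2%, 15.4% and 12.7% of those with a peak, against 18.1%, 21.4% and 19.2% over all genes. Their peaks had median widths of 708.5, 879 and 875 bp, and those of all genes 783, 942 and 906 bp.

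The ATP synthase genes had the highest median percentile in each list, at 76.9, 80.3 and 76.2, closely followed by complex IV under rapamycin at 76.1. Complex I was lowest in each list, at 65.5, 71.8 and 68.6. The spread within complexes I and V was far wider than the gaps between their medians. Gene-end peaks were found under DMSO, AZD2014 and rapamycin at 36, 38 and 32 of the 39 complex I genes. For complex IV the counts were 12, 12 and 11 of 20. All 4 complex II genes, all 8 complex III genes and 16 of 17 ATP synthase genes had one in each list.

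**Figure D2:**
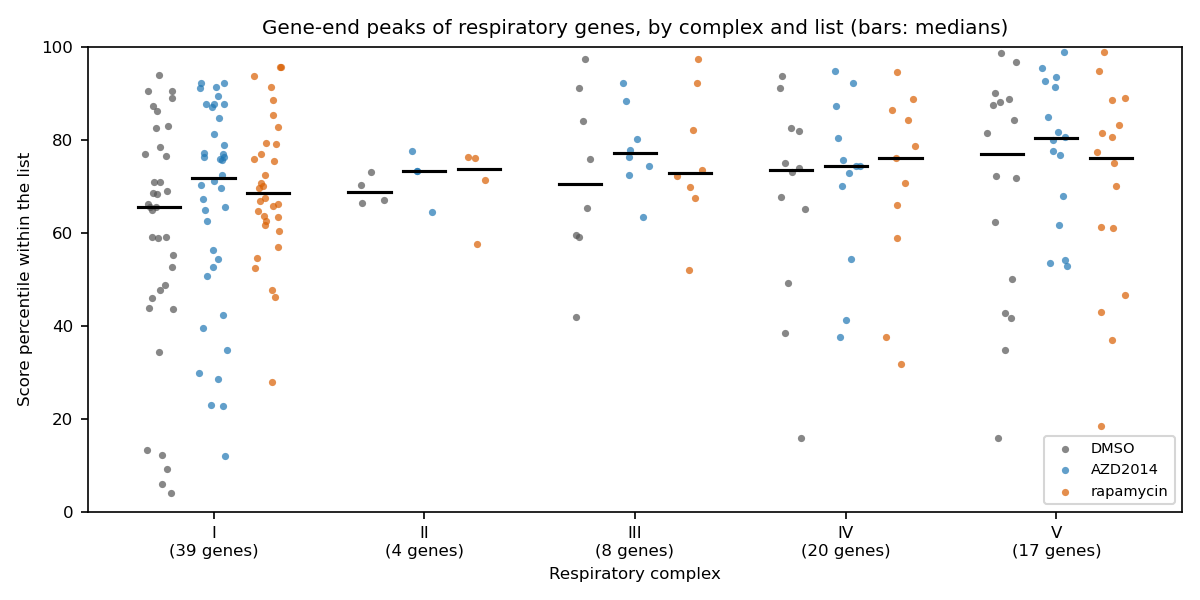
Score percentile within the list (vertical axis) of gene-end peaks by respiratory complex (horizontal axis) and list (colours); each point is 1 gene and black bars are medians. Medians under DMSO lie between 65.5 for complex I and 76.9 for complex V, inside the much wider spread of single genes.

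Among complex I genes, Ndufv2, an iron-sulfur subunit of the NADH-oxidising module, had the highest score under DMSO. Its peak scored 417 under DMSO, 496 under AZD2014 and 433 under rapamycin, at percentiles 93.9, 91.3 and 91.4. Ndufs8, another iron-sulfur subunit, scored 364, 437 and 477, at percentiles 90.5, 87.8 and 93.8. The core subunit gene Ndufs3 and the accessory subunit gene Ndufa3 stood at the other end under DMSO. The Ndufs3 peak scored 53.2 under DMSO, 162 under AZD2014 and 189.6 under rapamycin, with percentiles of 4.06, 56.3 and 63.7. The Ndufa3 peak scored 54.7, 102 and 155, with percentiles of 6.02, 39.5 and 57.0. Both were thus near the foot of the DMSO list and in the middle of the rapamycin list.

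The 4 complex II genes, which encode succinate dehydrogenase, lay close together. Sdhc, a membrane anchor, scored 221, 278 and 234 under DMSO, AZD2014 and rapamycin. Sdhb, the iron-sulfur subunit, scored 206, 317 and 269. Sdha, the flavoprotein that oxidises succinate, scored 189, 277 and 268, and Sdhd, the other anchor, 187, 211 and 158. Their percentiles spanned 66.5 to 73.2 under DMSO, 64.5 to 77.6 under AZD2014 and 57.7 to 76.3 under rapamycin, with Sdhd lowest each time.

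In complex III, Uqcrq, which encodes a small subunit, was highest under DMSO, with scores of 504, 515 and 589 and percentiles of 97.4, 92.2 and 97.4. Uqcrh, the hinge protein associated with cytochrome c1, scored 373, 447 and 448. The lowest under DMSO were the small subunit genes Uqcr11, with 102, 205 and 135, and Uqcr10, with 154, 286 and 239.7. Uqcrfs1, the Rieske iron-sulfur protein, lay between them at 237, 318 and 247. No complex III gene fell below percentile 41.8 in any list.

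In complex IV the highest scores under DMSO belonged to Cox7c and Cox8a, small structural subunits. Cox7c scored 412, 577 and 497, and Cox8a 373, 516 and 393. The lowest genes with a peak under DMSO were Cox7b, with 62.7 under DMSO and 97.6 under AZD2014 and no peak under rapamycin, and Cox7a1, with 95.1, 106 and 93.6. The Cox7a1 percentiles were 38.5, 41.3 and 37.5, and 38.5, 27.1 and 33.7 once the lists were cut to one length.

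The gene with the highest score of all 88 in every list was Atp5g1, which encodes the c subunit of the ATP synthase rotor. Its peak scored 583 under DMSO, 790.1 under AZD2014 and 705 under rapamycin, at percentiles 98.8, 98.95 and 98.97. The mature c subunit is encoded identically by Atp5g1, Atp5g2 and Atp5g3, whose peaks differed widely in score. Atp5g2 scored 358, 498 and 396, and Atp5g3 scored 102, 192 and 107, below Atp5g1 and Atp5g2 in each list. Atp5j, which encodes coupling factor 6 of the stalk, was second among the ATP synthase genes under DMSO, with 484, 602 and 501. The lowest ATP synthase peaks under DMSO were those of Atp5o, the oligomycin-sensitivity protein (OSCP), and Atp5j2. Atp5o scored 62.6, 151 and 177, and Atp5j2 scored 88.4, 149 and 92.3.

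The promoters of Atp5g1, Atp5j and Cox8a are shown because they lay under some of the strongest of these peaks. Sequences here are from RefSeq on GRCm38.p6, the assembly that mm10 names, and run from 250 bases before to 50 bases after a tabulated transcription start, 5′ to 3′ on the gene's strand. Capitals mark matches, on either strand, to the motifs described further on. They were CCAAT boxes in Atp5g1 (chr11:96075582-96075881 on the minus strand), where 2 of the 5 matches overlap, and NRF1, YY1 and ETS motifs in order along Atp5j (chr16:84834927-84835226 on the minus strand, the start of its 2 whose promoter holds more motifs). In Cox8a (chr19:7217567-7217866 on the minus strand) they were 1 CCAAT box and 2 ETS motifs.
Atp5g1: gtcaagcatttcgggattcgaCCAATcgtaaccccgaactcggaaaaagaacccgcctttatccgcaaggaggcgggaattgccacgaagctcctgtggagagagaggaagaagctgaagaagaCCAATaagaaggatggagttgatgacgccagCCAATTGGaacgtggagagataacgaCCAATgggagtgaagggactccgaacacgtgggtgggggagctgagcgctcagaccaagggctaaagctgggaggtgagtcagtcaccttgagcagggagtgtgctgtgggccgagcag
Atp5j: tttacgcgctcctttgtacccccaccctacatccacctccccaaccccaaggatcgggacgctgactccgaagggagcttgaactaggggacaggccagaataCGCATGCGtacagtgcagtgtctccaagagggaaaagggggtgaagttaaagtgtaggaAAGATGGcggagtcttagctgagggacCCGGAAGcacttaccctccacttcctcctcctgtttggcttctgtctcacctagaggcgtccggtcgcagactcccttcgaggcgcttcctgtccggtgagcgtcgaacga
Cox8a: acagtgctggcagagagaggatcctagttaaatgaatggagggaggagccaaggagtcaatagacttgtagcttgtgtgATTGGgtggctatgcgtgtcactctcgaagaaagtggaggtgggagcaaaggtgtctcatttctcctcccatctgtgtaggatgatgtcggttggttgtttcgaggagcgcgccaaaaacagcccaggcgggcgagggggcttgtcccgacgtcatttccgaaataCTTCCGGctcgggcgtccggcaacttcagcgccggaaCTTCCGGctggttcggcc

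The Atp5g1 peak ran from 510 bp before to 249 bp after the start under DMSO, and so covered the whole promoter shown. The Atp5j peak also covered the whole promoter shown. At 1889 bp it was the widest of the 76 DMSO peaks, followed by Uqcrh at 1456 bp and Ndufa11 at 1406 bp. Among the narrowest were Ndufa1 at 363 bp and Ndufs3 at 377 bp. All 3 of the widest peaks also touched an end of a neighbouring gene.

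Several complex IV isoform genes known for use in other tissues had no peak, while the general forms did. Cox4i1, the general isoform of subunit 4, scored 285 under DMSO, 428 under AZD2014 and 366 under rapamycin, while Cox4i2, its lung-enriched counterpart, had no gene-end peak and none nearer than 11.7 kb. Cox6a1 scored 225, 286 and 267, and the heart and muscle form Cox6a2 had none nearer than 16.8 kb. Cox8a is described above, the muscle form Cox8b had no peak within 16.2 kb and the testis form Cox8c none within 20.4 kb. Cox7b had a peak in 2 lists, and the nearest to the testis form Cox7b2 was over 619 kb away. Ndufa4 scored 231, 347 and 341, and its hypoxia-inducible relative Ndufa4l2 had no gene-end peak in any list. A peak inside Ndufa4l2 was in the AZD2014 list with a score of 61.1 and in the rapamycin list with 70.02, and no DMSO peak touched the gene.

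The tissue-restricted isoforms Cox6b2 and Cox7a1 did have peaks. The testis form Cox6b2 scored 220.3, 252 and 229 beside 179.5, 274.5 and 165 for the general form Cox6b1, and the Cox6b2 peak also touched an end of Fam71e2. The muscle form Cox7a1 had a peak in each list as given above. Of the remaining genes, Cox7a2l, which takes part in respiratory supercomplex assembly, scored 193, 286 and 202. Cox6c scored 121, 153 and 82.7.

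The Cox8b promoter (chr7:140900397-140900696 on the minus strand) is shown as one with no peak nearby, to be set beside that of Cox8a. It holds 2 CpG dinucleotides, the fewest of any respiratory promoter, against a median of 20 for respiratory genes with a peak in all 3 lists. The promoter of Cox7b2, also without a peak, holds 10, and that of Cox7a1, with a peak in each list, holds 7. The capitals in the Cox8b promoter mark a TATAAA match at position 5, counting the tabulated start as position 1.
Cox8b: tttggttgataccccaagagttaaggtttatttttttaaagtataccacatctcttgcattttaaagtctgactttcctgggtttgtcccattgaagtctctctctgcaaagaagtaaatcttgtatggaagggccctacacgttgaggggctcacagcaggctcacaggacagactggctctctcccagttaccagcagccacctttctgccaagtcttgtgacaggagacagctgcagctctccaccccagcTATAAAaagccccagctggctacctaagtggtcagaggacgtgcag

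No gene-end peak was listed for 10 genes, and for 3 of these the gene model rather than the peak lists set that result. Cox5a, Cox7a2 and Atp5d have a tabulated start that lies inside the RefSeq gene span, more than 1 kb from its ends, and a peak touched that start in each list. The Cox5a start peak scored 182 under DMSO, 299 under AZD2014 and 211 under rapamycin. That of Cox7a2, the general form of subunit 7a, scored 273, 416 and 345. That of Atp5d, the delta subunit, scored 101 and 156 and, merged with a neighbouring peak under rapamycin, 212. The remaining 7 were Cox4i2, Cox6a2, Cox7b2, Cox8b, Cox8c, Ndufa4l2 and Ndufb4c.

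A start is tabulated for 71 of the 88 genes, and a peak lay within 1 kb of it at 67 genes under DMSO (94.4%), 69 under AZD2014 (97.2%) and 63 under rapamycin (88.7%). Over all genes with a tabulated start these shares were 48.5%, 51.8% and 49.5%. Of the genes with such a peak, it covered the start at 66, 69 and 63 (98.5%, 100% and 100%), near the 94.5%, 94.9% and 95.3% over all genes. The exception was Ndufs3 under DMSO, whose peak ended 27 bp before the start, whereas its AZD2014 and rapamycin peaks covered it. The median midpoint of the peaks lay 23 bp before the start under DMSO, 1.5 bp before under AZD2014 and 34 bp before under rapamycin. Over all genes it lay 15 bp before, 0.5 bp after and 5 bp before.

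**Figure D3:**
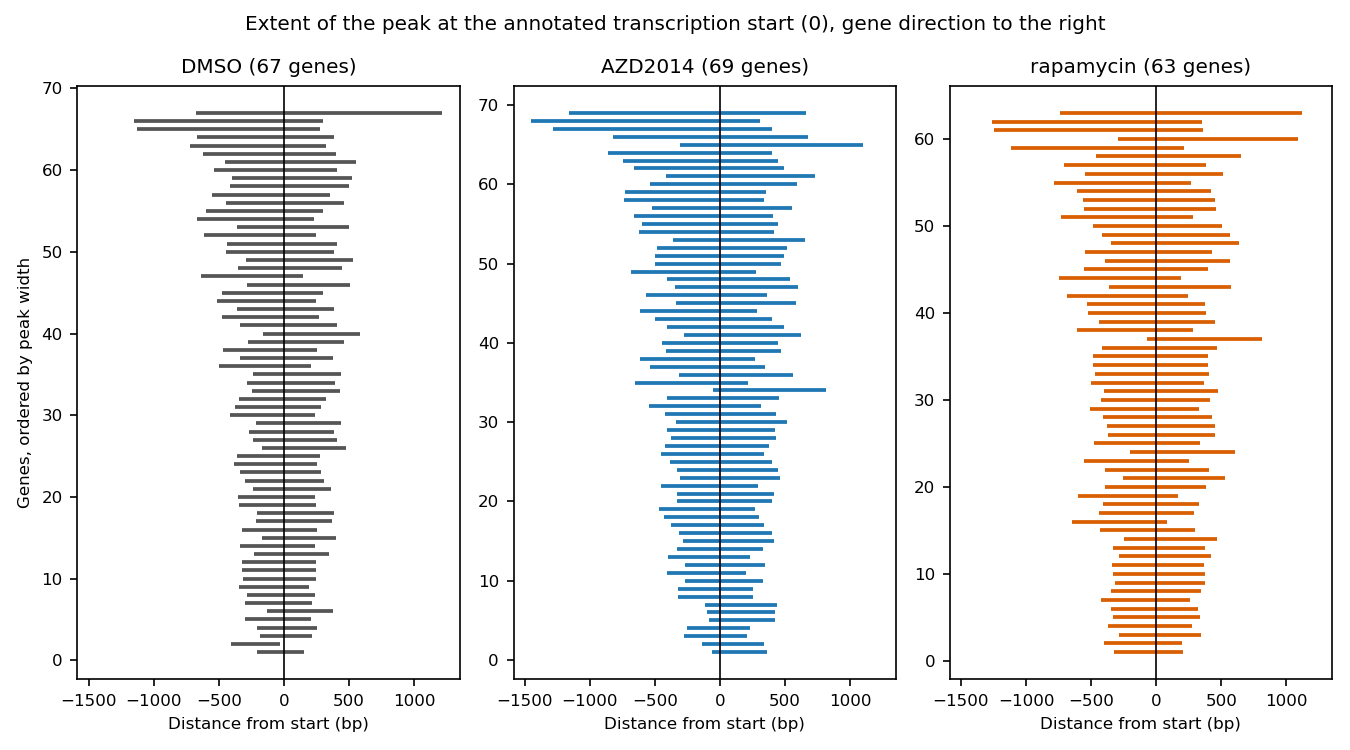
Extent of the peak at the tabulated transcription start (0, black line) for each gene with one, ordered by width, in the DMSO (67 genes), AZD2014 (69) and rapamycin (63) lists; the horizontal axis is the distance from the start in bp, with transcription to the right. Every bar crosses the line apart from that of Ndufs3 under DMSO.

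Peaks of respiratory genes often also touched an end of a neighbouring gene. That held for 36 of 76 genes under DMSO (47.4%), 36 of 78 under AZD2014 (46.2%) and 34 of 71 under rapamycin (47.9%). Over all genes with a gene-end peak the shares were 29.8%, 29.4% and 30.1%. The neighbour was never another of the 88, and 33 genes shared in all 3 lists. The 6 with the highest DMSO scores were Uqcrq with Gdf9, Atp5j with Gabpa, Uqcrh with Lrrc41, Ndufs8 with Aldh3b1, Ndufv3 with Wdr4 and Ndufb5 with Mrpl47. Gabpa encodes the DNA-binding subunit of GABP, and Mrpl47 a mitochondrial ribosomal protein. Sharing peaks had a median width of 794 bp under DMSO against 660.5 bp for the others. Under AZD2014 the widths were 906.5 against 831 bp, and under rapamycin 943.5 against 810 bp. Sharing peaks were also wider over all genes, at 851 against 749, 1021 against 912 and 975 against 875 bp. A shared peak cannot be assigned to either gene.

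Presence of a gene-end peak differed between lists for 7 genes, 6 of them in complex I. Peaks inside a gene, away from its ends, were not counted, so a gene called without a peak may still hold one. Both drug comparisons share the DMSO library. AZD2014 against DMSO gave 2 genes with a peak under AZD2014 and none under DMSO, Ndufc2 and Ndufb4b (4.63% of all genes), and 0 the other way (1.09%). Rapamycin against DMSO gave 0 genes with a peak under rapamycin alone of the pair (3.05%) and 5 with a peak under DMSO and none under rapamycin (2.09%), among them Ndufs4, Ndufb8, Ndufa1 and Cox7b. These 5 were 6.58% of the genes with a DMSO peak, against 4.54% over all genes. The 0 with a rapamycin peak and no DMSO peak stand against 6.50% of all genes with a rapamycin peak. AZD2014 against rapamycin gave all 7 with a peak under AZD2014 and none under rapamycin (3.79%) and 0 the other way (1.21%). These 7 were 8.97% of the genes with an AZD2014 peak, against 7.66% over all genes. The 0 with a rapamycin peak and no AZD2014 peak stand against 2.58% of all genes with a rapamycin peak. The doses differ, so the drugs are set side by side and not ranked.

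All 5 genes with a DMSO gene-end peak and no rapamycin gene-end peak had their DMSO peak in the lower 50% of that list by score. Of the 19 respiratory genes there, 5 lacked a gene-end peak under rapamycin (26.3%), against 17.8% of all genes in that range. Under AZD2014 0 lacked one, against 9.25%. The 57 in the upper 50% kept a gene-end peak in each of the drug lists. Over all genes, 7609 had a DMSO peak in that range, and nearly all kept one too. Of the 457 genes with a DMSO peak and none under rapamycin, 436 were in the lower 50%. For AZD2014 these were 227 of 238.

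Ndufs4, an accessory complex I subunit whose loss causes Leigh syndrome in humans, scored 107 under DMSO and 71.8 under AZD2014 and had no peak under rapamycin, the nearest one there being 292 kb away. Ndufb8, another accessory subunit, scored 120.0 and 82.3 and had none under rapamycin within 7.01 kb. Ndufa1, an X-linked accessory subunit, scored 57.3 and 91.5, with no rapamycin peak within 76.6 kb; its peak also touched an end of Rnf113a1. Cox7b, an X-linked complex IV subunit, scored 62.7 and 97.6, with the nearest rapamycin peak 3.53 kb away. Each of these 4 peaks covered the transcription start. The higher AZD2014 scores of Ndufa1 and Cox7b and the lower ones of Ndufs4 and Ndufb8 come from lists on no common scale.

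Ndufc2, an accessory complex I subunit, had a peak under AZD2014 alone, with a score of 72.0 that covered the start. Ndufb4b also had one under AZD2014 alone, with 59.2; it is a close relative of Ndufb4, so reads may be split between copies and its value is uncertain.

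The promoters of 5 status-changing genes with a peak over a tabulated start are shown to let the sequence of these weaker sites be read, leaving out Ndufb4b, whose value is uncertain. They are Ndufs4 (chr13:114388045-114388344 on the minus strand), Ndufb8 (chr19:44555393-44555692 on the minus strand), Ndufa1 (chrX:37191189-37191488 on the minus strand), Cox7b (chrX:106015450-106015749 on the plus strand) and Ndufc2 (chr7:97399753-97400052 on the plus strand). Capitals mark a YY1 motif at position 36 in Ndufs4, a GC box and, at position 39, a YY1 motif in Ndufb8, a GC box in Ndufa1, and CCAAT boxes in Cox7b (2) and Ndufc2 (1).
Ndufs4: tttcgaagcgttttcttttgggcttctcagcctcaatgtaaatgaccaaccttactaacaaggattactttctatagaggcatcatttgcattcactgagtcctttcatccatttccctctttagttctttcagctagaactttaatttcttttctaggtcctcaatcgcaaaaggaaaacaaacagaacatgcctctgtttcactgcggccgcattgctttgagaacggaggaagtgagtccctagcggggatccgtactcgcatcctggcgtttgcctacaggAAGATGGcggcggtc
Ndufb8: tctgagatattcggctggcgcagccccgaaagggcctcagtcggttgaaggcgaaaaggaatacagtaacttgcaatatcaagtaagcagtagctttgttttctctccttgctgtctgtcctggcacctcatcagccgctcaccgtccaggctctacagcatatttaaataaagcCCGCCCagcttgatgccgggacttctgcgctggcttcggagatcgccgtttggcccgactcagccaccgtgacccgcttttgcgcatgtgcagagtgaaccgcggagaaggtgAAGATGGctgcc
Ndufa1: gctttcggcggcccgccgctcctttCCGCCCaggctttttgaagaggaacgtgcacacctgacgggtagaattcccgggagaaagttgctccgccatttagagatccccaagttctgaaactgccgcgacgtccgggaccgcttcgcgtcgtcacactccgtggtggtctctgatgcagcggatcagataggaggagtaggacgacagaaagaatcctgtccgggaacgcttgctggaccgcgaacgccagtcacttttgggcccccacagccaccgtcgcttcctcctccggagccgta
Cox7b: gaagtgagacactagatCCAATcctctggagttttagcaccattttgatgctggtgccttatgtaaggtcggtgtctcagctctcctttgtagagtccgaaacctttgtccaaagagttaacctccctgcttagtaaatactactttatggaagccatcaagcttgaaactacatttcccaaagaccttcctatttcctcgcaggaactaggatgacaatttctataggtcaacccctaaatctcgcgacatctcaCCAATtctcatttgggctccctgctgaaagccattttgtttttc
Ndufc2: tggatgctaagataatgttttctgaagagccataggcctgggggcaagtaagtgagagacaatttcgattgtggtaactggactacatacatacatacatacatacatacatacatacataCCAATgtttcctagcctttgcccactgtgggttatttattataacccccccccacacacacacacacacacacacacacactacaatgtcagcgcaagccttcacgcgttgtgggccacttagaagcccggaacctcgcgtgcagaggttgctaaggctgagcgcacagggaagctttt

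To compare places in the ranking, each list was shortened to its 17189 highest-scoring peaks, the length of the DMSO list. A difference of 10 percentile points was then counted, a size chosen after the values were seen. Of 76 genes with a peak in both lists, 13 stood at least 10 points higher under AZD2014 than under DMSO (17.1%, against 15.8% of all genes) and 11 lower (14.5%, against 12.4%). Of 71 genes, 9 stood higher under rapamycin than under DMSO (12.7%, against 16.1%) and 8 lower (11.3%, against 13.6%). Between the drugs, 8 stood higher under AZD2014 (11.3%, against 12.8%) and 6 lower (8.45%, against 11.8%). The median differences were 0.21, -0.69 and -0.21 points, beside 0.30, 0.20 and 0.09 over all genes. These shares are near the background in each comparison.

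Single genes moved further, with no replicate to judge them by. Ndufs3 stood at percentile 4.06 under DMSO, 45.8 under AZD2014 and 61.5 under rapamycin, with lists of one length. Ndufa3 stood at 6.02, 24.99 and 54.4, and Atp5o at 15.8, 43.0 and 58.9. All 3 were lowest under DMSO and highest under rapamycin. Ndufa7, an accessory complex I subunit whose peak also touched an end of Rps28, stood at 34.3, 56.5 and 58.0, and Ndufb2 at 45.9, 70.1 and 63.7.

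Other genes stood lower under a drug. Ndufs4 went from 43.8 under DMSO to 4.19 under AZD2014, and Ndufb8 from 48.7 to 13.1; these are 2 of the genes without a rapamycin peak. The other named genes without a rapamycin peak stood higher under AZD2014, Ndufa1 at 19.1 against 9.18 and Cox7b at 22.5 against 15.9. Atp5l, the g subunit of the ATP synthase, stood at 50.1 under DMSO, 41.5 under AZD2014 and 13.5 under rapamycin. Cox6c stood at 49.2, 43.5 and 27.5, and Ndufb1 at 71.1, 62.4 and 49.6. These 3 were lowest under rapamycin.

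**Figure D4:**
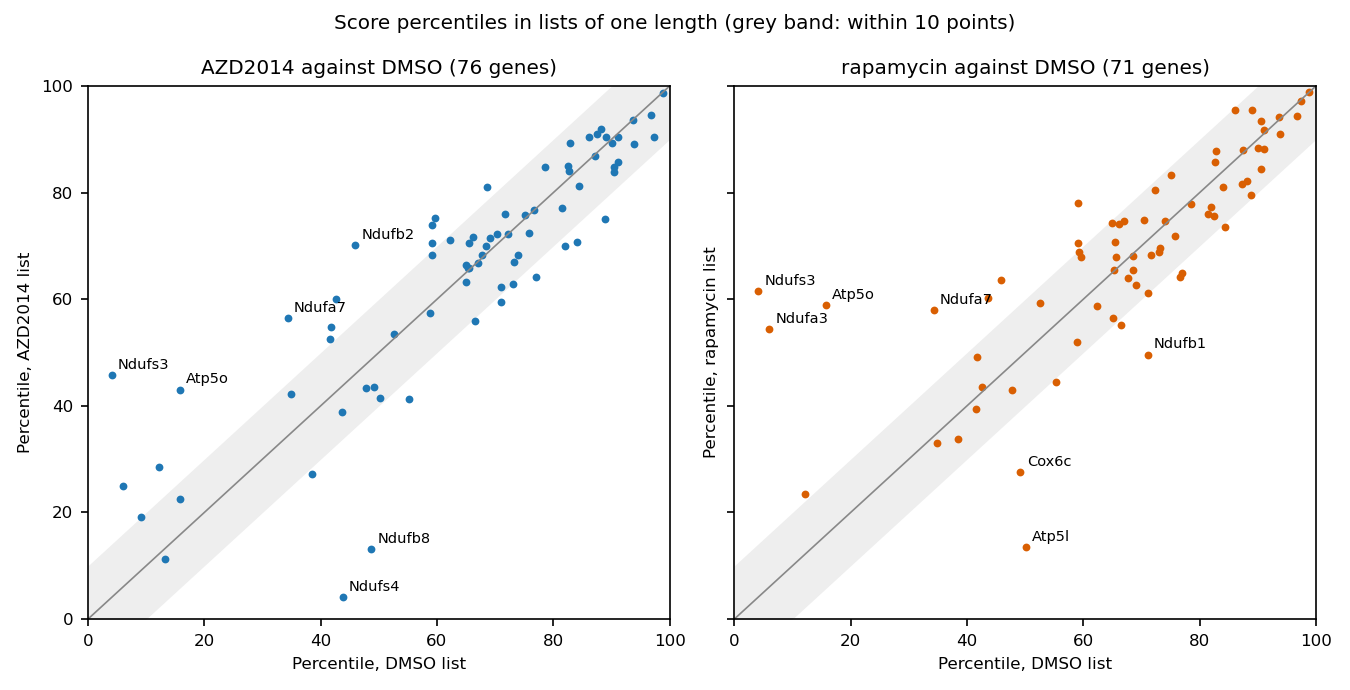
Score percentile in the AZD2014 list (left) or rapamycin list (right) against that in the DMSO list, all cut to the 17189 highest-scoring peaks; each point is 1 gene, the line is equality and the grey band spans 10 points on either side. Most points lie in the band, Ndufs3 and Atp5o lie above it in both panels, and Atp5l lies below it under rapamycin (13.5 against 50.1).

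The Atp5l promoter (chr9:44920693-44920992 on the minus strand) is shown because it held 5 of the 8 motifs searched, the most of any of the promoters matched, and because its peak differed in rank under rapamycin. In capitals, from the 5′ end, are a CCAAT box, an NRF1 motif, an ETS motif, a TATA match, an ERR motif and another ETS motif at position 25.
Atp5l: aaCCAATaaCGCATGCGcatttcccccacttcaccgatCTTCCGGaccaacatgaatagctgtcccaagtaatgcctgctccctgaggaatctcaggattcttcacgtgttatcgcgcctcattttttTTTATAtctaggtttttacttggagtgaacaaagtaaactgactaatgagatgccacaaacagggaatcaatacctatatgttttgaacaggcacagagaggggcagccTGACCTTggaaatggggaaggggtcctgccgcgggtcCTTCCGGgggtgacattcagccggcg

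Promoter sequences were matched for 71 of the 88 genes, with 76 promoters of 300 bases because 5 genes had more than 1 start. Each motif was searched by its exact letters on both strands, matches of different motifs or of one motif could overlap, and a match is a description and not a binding site. The NRF1 motif, spelled CGCATGCG, was found in 11.8% of these promoters, against 2.52% of all 21263 promoters and 4.51% of the 9638 promoters of genes with a gene-end peak in all 3 lists. It was in those of Atp5g2, Atp5j, Atp5k, Atp5l, Cox6a1, Ndufa8, Ndufa11, Uqcr11 and Uqcrc1. The ERR motif, spelled AAGGTCA, was in 10.5%, against 4.08% and 2.68%. The YY1 motif, spelled AAGATGG, was in 14.5%, against 6.24% and 7.53%.

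The ETS motif, spelled CCGGAAG, was in 22.4% of the respiratory promoters, above the 11.6% of all promoters and near the 20.1% of genes with a peak in all lists. The GC box, spelled GGGCGG, was in 39.5%, against 46.2% of all promoters and 66.0% of those with a peak in all lists. The CCAAT box, spelled CCAAT, was in 40.8%, against 38.2% and 40.1%. The cyclic AMP element, spelled TGACGTCA, was in 5.26%, against 2.23% and 3.58%, and the TATA box, spelled TATAAA, in 11.8%, against 12.6% and 6.41%. The respiratory promoters had a median GC content of 57.5% and 19 CpG dinucleotides, against 56.3% and 13 in all promoters. Promoters of genes with a peak in all 3 lists had 61.3% and 22, and those of genes with none 50.3% and 4. Among respiratory genes with few CpG, Cox7b and Ndufb4b held 5 each, Cox7a1 7 and Ndufc2 8.

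**Figure D5:**
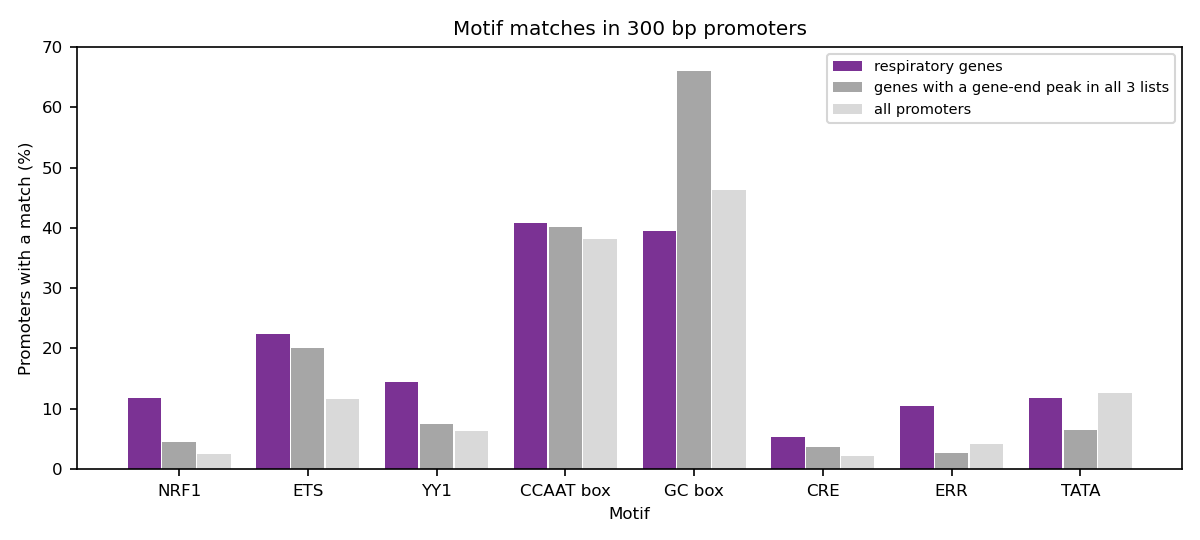
Share of 300 bp promoters (vertical axis, %) with at least 1 match to each of 8 motifs (horizontal axis), for the respiratory genes (76 promoters), genes with a gene-end peak in all 3 lists (9638) and all promoters (21263). The NRF1 bars read 11.8%, 4.51% and 2.52% in that order, and the GC box bar of the respiratory genes is the lowest of its group at 39.5%.

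Other genes of the pathway and the most similar gene groups were read by the same gene-end rule. Of 47 assembly factors, 45, 46 and 45 had a peak under DMSO, AZD2014 and rapamycin, the difference being Atpaf1, an ATP synthase assembly factor. Cycs, the general cytochrome c, scored 329, 555 and 406, and the testis form Cyct had no peak in any list. Of 78 mitochondrial ribosomal protein genes, 66, 73 and 68 had a peak. Of the 78, 7 had one under AZD2014 and not DMSO, against 4.63% of all genes. Another 4 calls were under rapamycin and not DMSO, against 3.05%, and 2 under DMSO and not rapamycin, against 2.09%. Of 77 cytosolic ribosomal protein genes, 74 had a peak in each list and none differed. Beside these stand the 76, 78 and 71 of 88 respiratory genes, and 46.0%, 49.5% and 46.9% of all genes. No difference between the groups was tested.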

How the data were processed

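ATAC-seq peak lists of 3 libraries, 1 each for DMSO, AZD2014 and rapamycin, were used as deposited. Per the labels, libraries were made from 50000 sorted cells and sequenced on a HiSeq 2500, and the submitters' processing notes name CASAVA and mm10. The aligner, the peak caller, its settings and the meaning of the score were not given in the sources used here, and neither were read totals. The deposited score of each peak is the authors' own value, and the other deposited columns are coordinates. A list that was read more deeply, or called at another setting, can hold more and wider peaks.

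From these files the peaks within 1 kb of either gene end, their width and their rank by score were computed, with the highest-scoring one kept per gene. Gene spans came from a RefSeq table of GRCm38.p6 without strand, and 13 mitochondrially encoded genes were left out. Promoters and starts came from a RefSeq table of the same assembly. Genes were named by a fixed rule: a status that differed between lists, no peak in any list, the 2 highest and 2 lowest by DMSO score per complex, the 3 widest and 3 narrowest peaks, the isoform genes, the Sdh genes and up to 6 sharing genes. The inhibitor gene is listed as Atpif1 and falls outside the symbols used. Genes named for their place in lists of one length, and the promoters shown, were chosen with their values in view. The members, gene lists and comparisons were chosen with earlier results of these data known. The values of 1 gene are not reported here. No test was made, since each condition had 1 library. The code that finds overlaps was checked on simulated peaks. The alternatives were gene ends of 500 or 2500 bp, lists of one length, the upper 50% of each list, starts alone, peaks of 200 bp, shared peaks counted once and, added after the data were seen, a difference of 20 points. Python 3.11.15, numpy 2.4.6, pandas 2.3.3, scipy 1.17.1 and matplotlib 3.10.9 were used.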

Additional observations from a re-analysis of the deposited data

How the results depend on the processing

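The numbers of respiratory genes with a gene-end peak stayed within 1.5 times their reported values under every alternative tried, from 57 to 78 under DMSO, 68 to 79 under AZD2014 and 62 to 72 under rapamycin, with the lowest values in the upper 50% of each list. Counting shared peaks once could not change these numbers, because no respiratory gene shared its peak with another. Lists of one length could not change the DMSO number, because the DMSO list set that length. The counts of genes that differed between lists were small and moved more. Genes with a peak under AZD2014 and not DMSO numbered 1 in lists of one length, where Ndufb4b had none, and 11 in the upper 50%. In the upper 50%, 7 had a peak under rapamycin and not DMSO, 2 under DMSO and not rapamycin and 1 under rapamycin and not AZD2014, and none of the genes named for their status had a peak there. With gene ends of 2500 bp, 1 gene, Ndufb4c, had a peak under DMSO and not AZD2014. Median percentiles in the upper 50%, ranked anew, were 48.0, 53.1 and 50.6 under DMSO, AZD2014 and rapamycin, and that of AZD2014 was 69.9 in lists of one length. With starts alone Cox5a, Cox7a2 and Atp5d had a peak in 3 lists. With a difference of 20 points, 4 genes stood higher and 2 lower under AZD2014 than DMSO, 4 and 3 under rapamycin than DMSO, and 1 and 2 under AZD2014 than rapamycin. Widths were not recomputed for peaks set to 200 bp. No paired analysis was possible because each condition had 1 library. Read depth is unknown, so the part of depth in list length, width and missing peaks was not tested.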

Other observations

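Genes that feed or regulate the respiratory chain mostly had a gene-end peak as well. Over all genes the shares with one were 46.0%, 49.5% and 46.9% under DMSO, AZD2014 and rapamycin. Of 17 genes of the tricarboxylic acid cycle and its entry, 16 had a gene-end peak in each list, led by Pdhb, a subunit of pyruvate dehydrogenase, with scores of 566 under DMSO, 893 under AZD2014 and 713 under rapamycin. Idh2 had no peak at its gene ends but had one over its tabulated start, inside the gene span, in each list, with scores of 109, 140.1 and 169. Of 20 regulators of respiratory and mitochondrial DNA genes, a gene-end peak was listed for 17, 18 and 16 under DMSO, AZD2014 and rapamycin. Polg is counted under AZD2014 alone, although all 3 lists hold a peak inside it near the edge of the window. Esrra, which encodes ERRα, scored 526, 720 and 615, and Tfam, which packages mitochondrial DNA, scored 346, 385 and 392. Nrf1 scored 214, 390 and 286. Yy1 scored 381, 729 and 508, with widths of 1472, 2862 and 2858 bp. Ppargc1a, the gene of the coactivator PGC-1α, had no gene-end peak in any list. Ppargc1b, its relative, scored 158 under DMSO, 78.7 under AZD2014 and 66.4 under rapamycin, at percentiles 60.1, 27.5 and 20.04 of lists of different lengths. Tefm, the mitochondrial transcription elongation factor, scored 69.0 under DMSO and 107 under AZD2014 and had no gene-end peak under rapamycin.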
